A study of Mus musculus with 8 samples.

Results

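The loci described here are the start sites of 10 genes that drive or restrain passage through G1, taken by name from 20807 protein-coding genes placed on the mouse autosomes, and measured with 2 Mb of chromosome on each side. They are the D-type cyclins Ccnd1, Ccnd2 and Ccnd3, the E-type cyclin Ccne1, the kinases Cdk4 and Cdk6, the pocket protein gene Rb1, the kinase inhibitor gene Cdkn1b and the transcription factor genes E2f1 and E2f2. In situ HiC, in which crosslinked chromatin is cut and religated so that the ends of a read pair mark sites that lay close in the nucleus, was done on 8 libraries of mouse splenic B cells activated in culture with 25 μg/ml lipopolysaccharide (LPS). There were 4 groups of 2 biological replicates, at 3 h, at 10 h, at 33 h just before the first division (imminent division) and at 33 h in cells sorted before DNA synthesis (pre-S). Per the methods, all mice were males 6 to 12 weeks old of C57BL/6 Pep3b background, and all sorted cells were activated but undivided, with the highest dye content and CD69 on their surface. The labels give the strain as C57BL/6 for cells at 3 h, 10 h and imminent division. For pre-S they give C57BL/6 FUCCI, mice that carry a reporter whose fluorescent proteins mark cell cycle phase, and these cells were sorted by those proteins, so that strain, sort gate and group cannot be told apart. The imminent division cells were not sorted by phase and can hold cells in G1, S and G2.

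In G1, D-type cyclins bind and activate the kinases Cdk4 and Cdk6, which begin to phosphorylate the retinoblastoma protein. This frees E2F transcription factors, which switch on Ccne1 and the genes of DNA synthesis, while p27, the product of Cdkn1b, holds the cyclin-kinase complexes in check. A resting B cell runs this sequence once before its first division after LPS. The contact maps do not measure RNA or protein, so nothing below is a level of expression of these genes.

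Each start site was taken to the 50 kb bin that holds it. Of the 10 bins, 6 hold the start of 1 protein-coding gene and the contacts of the other 4 are shared, since Ccnd1 starts in the same bin as LTO1, Ccnd3 with Taf8, Cdk4 with March9, Tspan31 and Agap2, and E2f1 with Necab3 and Actl10. The surroundings differ widely. Cdk4 has 103 other protein-coding starts within 2 Mb, E2f1 has 100, Ccnd3 has 86 and E2f2 has 75, whereas Cdk6 has 14 and Ccne1 has 9. Ccnd1 lies 502 kb from the end of chromosome 7 and has 48 usable partner bins of 80, and Cdk6 lies near the start of chromosome 5 and has 46. Ccnd2 is transcribed out of its start bin, as its start lies at the bin's lower edge, so most of the gene lies in the neighbouring bin.

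The libraries held between 88703088 and 218945191 read pairs. Replicate 2 of imminent division stood apart on the sex chromosomes, with 3.74% of read ends on X against 2.39% to 2.84% in the other 7 libraries and 0.0490% on Y against 0.0804% to 0.123%, which goes against a sample of males alone. Its part in the results was not tested beyond leaving it out. The share of cis read pairs at 1.5 Mb or more was lowest in both imminent division libraries, at 47.7% in each, against 51.0% to 53.9% in the others. All 10 start bins were in the open A compartment in all 8 libraries. So were all 10 B-cell marker genes, 6 of 6 T-cell markers with a value and all 5 myeloid markers, so compartment sign did not separate the labelled cell type from others.

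Contacts were first summed over the whole window, from 50 kb to 2 Mb on either side. Between 10 h and imminent division the windows of Ccnd3, Ccne1, Cdk4 and E2f2 lost contacts and that of Rb1 gained them, relative to the typical start bin. Those 5 of 10 compare with 44.3% of all 13251 start bins tested, so the count is near the background. The balance was 4 lower and 1 higher, where 22.0% of all start bins were called lower and 22.3% higher. With cis totals 3 members were called, all of them higher, and none of the 4 losses passed (edgeR FDR 0.0575 to 0.416). Between 10 h and pre-S no member passed, against 37.4% of all start bins. That count of 0 depended on the scaling, as 4 members were called lower under TMM factors, 4 with cis totals, 3 with bin coverage in the offsets and 4 under DESeq2. The 37.4% belongs to the scaling used here. No share of start bins is given for those settings, so their counts are not set against a background.

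Among the D-type cyclins, which link growth signals to the cycle, Ccnd3 changed most. Its start bin (chromosome 17, 47499964 to 47550025, GRCm38) had normalised contacts of 2333 and 2284 at 3 h, 2342 and 2258 at 10 h, then 1926 and 1933 at imminent division against 2120 and 2161 at pre-S. Both imminent division libraries lay below every other library, and both pre-S libraries lay between them and the earlier stages. The change from 10 h was −0.25 ± 0.04 on the log2 scale at imminent division (SE, edgeR quasi-likelihood FDR 5.87e-05), a fold of 0.840. At pre-S it was −0.10 ± 0.04 (edgeR FDR 0.0526), and the difference between the groups at 33 h was itself called (−0.15 ± 0.04, edgeR FDR 0.0417), though not without any 1 of the 10 h, imminent division or pre-S libraries (FDR up to 0.247, and 0.183 without replicate 2 of imminent division). Ccnd2, a D-type cyclin that B cells induce on activation, had 2229 and 2206 at 10 h, then 2091 and 2075 at imminent division against 2090 and 2150 at pre-S. The groups at 33 h lay below those at 10 h without overlap, but the changes did not pass (−0.09 ± 0.04 with edgeR FDR 0.0566 and −0.07 ± 0.04 with FDR 0.215). Ccnd1, the D-type cyclin of many epithelial cells, stayed between 1725 and 1835 in all 8 libraries and passed no test over the whole window.

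Ccne1 encodes the cyclin that activates Cdk2 at the entry to S phase. Its start bin (chromosome 7, 38100104 to 38149778) had the fewest contacts of the 10 in each library. It had 1760 and 1675 at 3 h, 1647 and 1567 at 10 h, then 1321 and 1432 at imminent division against 1468 and 1527 at pre-S. All 4 libraries at 33 h lay below both at 10 h, and those lay below both at 3 h. The change to imminent division was −0.22 ± 0.05 (edgeR FDR 0.0012) and that to pre-S −0.10 ± 0.05 (FDR 0.13). The loss at imminent division was not present when contacts over the whole chromosome above a distance curve were summed instead (log2 change 0.02), and did not pass with bin coverage in the offsets or under DESeq2's Wald test.

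Of the kinases, Cdk4 lost contacts and Cdk6 did not pass. The start bin of Cdk4 (chromosome 10, 127049990 to 127100333) had 2131.9 and 2132 at 10 h, then 1858 and 1821 at imminent division against 1940.0 and 2059 at pre-S. All 4 libraries at 33 h lay below both 10 h libraries, and imminent division lay lowest. The change was −0.21 ± 0.04 at imminent division (edgeR FDR 0.000322) and −0.09 ± 0.04 at pre-S (FDR 0.087). The loss at imminent division did not pass with cis totals (edgeR FDR 0.416) or above the distance curve over the whole chromosome (−0.04, FDR 0.357). The start bin of Cdk6 had 1950.0 and 1951 at 10 h, then 1843 and 1875 at imminent division against 1947 and 2006 at pre-S. Imminent division lay below 10 h without overlap, but that change did not pass (−0.07 ± 0.04, edgeR FDR 0.159). Pre-S overlapped 10 h.

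Rb1, the gene of the protein these kinases phosphorylate, went the other way. Its start bin (chromosome 14, 73300202 to 73350288) had 2162 and 2424 at 3 h, 2340.3 and 2337 at 10 h, then 2694 and 2550.3 at imminent division against 2613 and 2372 at pre-S. Imminent division lay above 10 h without overlap (0.16 ± 0.05, edgeR FDR 0.0106), while the pre-S replicates differed from each other by more than the means of the groups did (0.09 ± 0.05, FDR 0.164). The gain did not pass without either 10 h library or without replicate 1 of imminent division (edgeR FDR up to 0.0797), nor under TMM factors, bin coverage in the offsets or DESeq2. Cdkn1b, the gene of p27, had 2064 and 2047 at 10 h, then 2062 and 2090.0 at imminent division against 2008 and 2113 at pre-S, with overlap between all 3 groups and a change of 0.02 ± 0.04 at imminent division (edgeR FDR 0.776).

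The E2F genes parted. E2f2 had the most contacts of the 10 at 10 h, and its start bin (chromosome 4, 136150064 to 136199853) had 2640.5 and 2645 at 3 h, 2733 and 2728 at 10 h, then 2494 and 2479.6 at imminent division against 2578 and 2556 at pre-S. The replicates lay close together and no groups overlapped, and the change was −0.14 ± 0.04 at imminent division (edgeR FDR 0.00443) and −0.09 ± 0.04 at pre-S (FDR 0.0689). E2f1 stayed between 2301 and 2450.0 in all libraries, and its change at imminent division was −0.00 ± 0.04 (edgeR FDR 0.927).

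**Figure D1:**
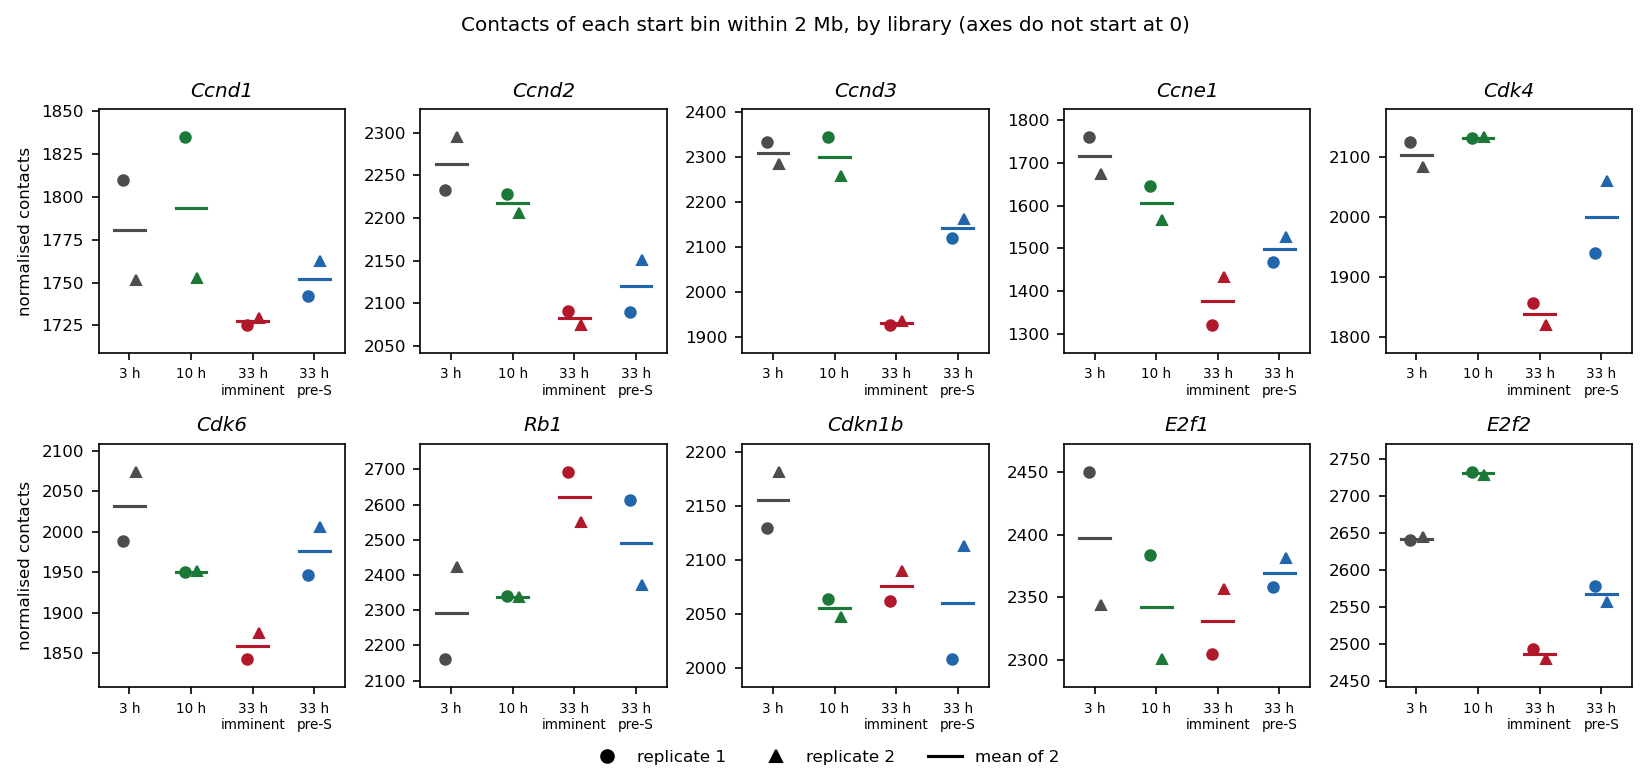
Normalised contacts (vertical axis, read pairs after scaling) of each start bin with bins 50 kb to 2 Mb away, for the 4 groups (horizontal axis), with circles for replicate 1, triangles for replicate 2 and a bar at the mean of 2. The imminent division libraries are the lowest for Ccnd3, Ccne1, Cdk4 and E2f2 and lie above both 10 h libraries for Rb1, and each panel has its own axis that does not start at 0.

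These values are relative. The scaling sets the typical start bin near no change, and scaled to cis totals alone the median start bin gained 0.20 on the log2 scale from 10 h to imminent division, with 8610 start bins called higher and 308 lower against 2955 and 2918 here. On that scale Ccnd1 gained 0.16, Ccne1 gained 0.06 and Ccnd3 fell by less, so a loss named here means fewer contacts than other start bins with as many contacts, not fewer in all. Contacts were also divided by the average for their distance over all bins of the same library, an alternative chosen after the data were seen. E2f2 then had 1.83 and 1.80 times the average at 10 h, then 1.39 and 1.46 at imminent division against 1.46 and 1.47 at pre-S. Ccnd3 had 1.52 and 1.45, then 1.11 and 1.17, then 1.22 and 1.27. Members not called over the whole window above fell on this scale too. The group means of E2f1 were 1.54, then 1.36, then 1.37, and those of Ccnd2 were 1.44, then 1.23, then 1.23. At pre-S the fall of E2f1 was called on this scale (−0.17, limma FDR 0.0243). Rb1 had 1.55 and 1.53, then 1.52 and 1.52, then 1.49 and 1.38, so its gain was not present on this scale.

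The sequences before the starts of the genes whose windows lost contacts are shown because they are the promoters inside the bins that changed. The table of start windows used here, from RefSeq (GRCm38.p6), was matched for 7 of the 10 members. The 250 bases before the start are written 5′ to 3′ on the gene's strand, with GC boxes (GGGCGG on either strand, a site of Sp-family factors) in capitals, for Ccnd3 at chr17:47504801-47505050 on the plus strand, Ccne1 at chr7:38107491-38107740 on the minus strand, Cdk4 at chr10:127063285-127063534 on the plus strand and E2f2 at chr4:136172024-136172273 on the plus strand.
Ccnd3: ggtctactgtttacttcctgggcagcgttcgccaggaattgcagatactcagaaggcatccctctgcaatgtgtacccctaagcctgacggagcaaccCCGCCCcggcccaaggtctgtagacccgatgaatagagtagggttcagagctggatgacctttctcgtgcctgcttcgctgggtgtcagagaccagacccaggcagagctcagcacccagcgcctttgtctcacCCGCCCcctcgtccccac
Ccne1: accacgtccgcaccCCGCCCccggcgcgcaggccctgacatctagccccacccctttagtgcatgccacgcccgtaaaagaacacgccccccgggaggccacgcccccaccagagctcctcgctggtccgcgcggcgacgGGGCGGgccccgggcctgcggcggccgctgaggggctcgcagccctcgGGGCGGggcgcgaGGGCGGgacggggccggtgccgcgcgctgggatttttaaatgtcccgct
Cdk4: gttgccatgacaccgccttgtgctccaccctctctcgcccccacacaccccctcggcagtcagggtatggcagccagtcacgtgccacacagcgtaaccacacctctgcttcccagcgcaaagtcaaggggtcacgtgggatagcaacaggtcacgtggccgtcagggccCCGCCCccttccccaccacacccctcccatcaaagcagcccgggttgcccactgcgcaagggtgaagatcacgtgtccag
E2f2: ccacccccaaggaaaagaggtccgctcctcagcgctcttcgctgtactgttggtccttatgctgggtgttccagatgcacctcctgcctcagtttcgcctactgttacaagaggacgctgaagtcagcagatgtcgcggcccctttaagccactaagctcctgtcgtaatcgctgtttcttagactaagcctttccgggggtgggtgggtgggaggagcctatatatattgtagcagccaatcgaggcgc

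Ccne1 has 4 GC boxes in these bases, Ccnd3 has 2, Cdk4 has 1 and this start of E2f2 has none. Of 32851 mouse start windows of the same length, 32.7% hold at least 1. The E2F letters TTTCCCGC, TTTCGCGC, TTTGCCGC and TTTGGCGC, searched on both strands, are in none of the 9 windows of the 7 members and in 1.86% of all. The windows of E2f1 (chr2:154569427-154569676, minus strand) and Cdk6 (chr5:3343643-3343892, plus strand) lie inside the genes. The starts used for their bins are at 154569892 and 3341485, so the bases before those starts were not searched. These are matches of letters only, in windows far shorter than the bins whose contacts were counted.

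The window was then split into near contacts, from 50 to 500 kb, and far contacts, from 550 kb to 2 Mb, to show where each change lay. Near contacts fell at imminent division at Ccnd3 (−0.27 ± 0.04, edgeR FDR 1.07e-05), Cdk4 (−0.27 ± 0.05, FDR 2.14e-05), Ccne1 (−0.20 ± 0.05, FDR 0.00125) and Ccnd2 (−0.11 ± 0.04, FDR 0.0274). That is 4 of 10 and all lower, against 38.9% of 13221 start bins called in either direction and 19.4% lower. The call at Ccnd2 was lost without any 1 of the 10 h or imminent division libraries. With cis totals none of the 4 losses passed (edgeR FDR 0.0836 at Ccnd3, 0.31 at Cdk4, 0.629 at Ccne1 and 0.793 at Ccnd2), and Ccne1 turned to 0.0341. The call at Ccne1 was also lost with bin coverage in the offsets. No near change of a member passed between 10 h and pre-S, where 29.8% of start bins were called. Under TMM factors 3 members were called lower there, 4 with cis totals, 2 with bin coverage in the offsets and 3 under DESeq2. The 29.8% belongs to the scaling used here, and no share of start bins is given for those settings. For Cdk4 the near contacts were 1561 and 1560.1 at 10 h, then 1315 and 1279.7 at imminent division against 1449.7 and 1513 at pre-S.

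Far contacts gave a partly different set of calls, with Ccnd3 called in both classes. Whether the changes differed between near and far contacts was not tested. They fell at imminent division at E2f2, Ccnd3 and Ccnd1, and rose at Rb1, 4 of 10 against 51.4% of 12785 start bins. E2f2 had far contacts of 441 and 417 at 3 h, 540.4 and 523 at 10 h, then 411 and 407 at imminent division against 434 and 438 at pre-S. Its 10 h libraries thus stood above all 6 others. It was the only member called between 3 h and 10 h (0.32 ± 0.08, edgeR FDR 0.0235, against 1.81% of start bins called), a call lost without either 10 h library or without replicate 2 of 3 h (FDR up to 0.331) and with the replicate block, while DESeq2 gave it no adjusted p. It then fell by 0.38 ± 0.07 to imminent division (edgeR FDR 3.89e-05), a call kept under all alternatives run. It fell by 0.28 ± 0.08 to pre-S (FDR 0.00427), a call lost without replicate 1 of pre-S and under DESeq2. Rb1 had far contacts of 402 and 410.3 at 10 h, then 521 and 518 at imminent division against 465 and 399 at pre-S. Its gain at imminent division (0.35 ± 0.07, edgeR FDR 0.000234) passed under every alternative, from scaling by totals to each library left out. Ccnd3 had 579 and 574 at 10 h, then 464 and 505 at imminent division against 519 and 489.8 at pre-S, and both losses passed (−0.25 ± 0.07 with edgeR FDR 0.00287 and −0.19 ± 0.07 with FDR 0.0437), the first lost without replicate 1 of imminent division and with cis totals (FDR 0.168). The latter was lost without any 1 of the 10 h or pre-S libraries, with cis totals, under DESeq2 and with the replicate block. Between 10 h and pre-S these 2 calls, at E2f2 and Ccnd3, compare with 36.7% of start bins. Ccnd1, with 276 and 286 at 10 h and 219 and 259 at imminent division, fell by 0.23 ± 0.09 (edgeR FDR 0.0328). That call was lost without any 1 of the 10 h libraries or replicate 1 of imminent division (edgeR FDR up to 0.265), under TMM factors, with bin coverage in the offsets (FDR 0.171) and under DESeq2 (FDR 0.885). With cis totals the change turned to a gain of 0.11.

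**Figure D2:**
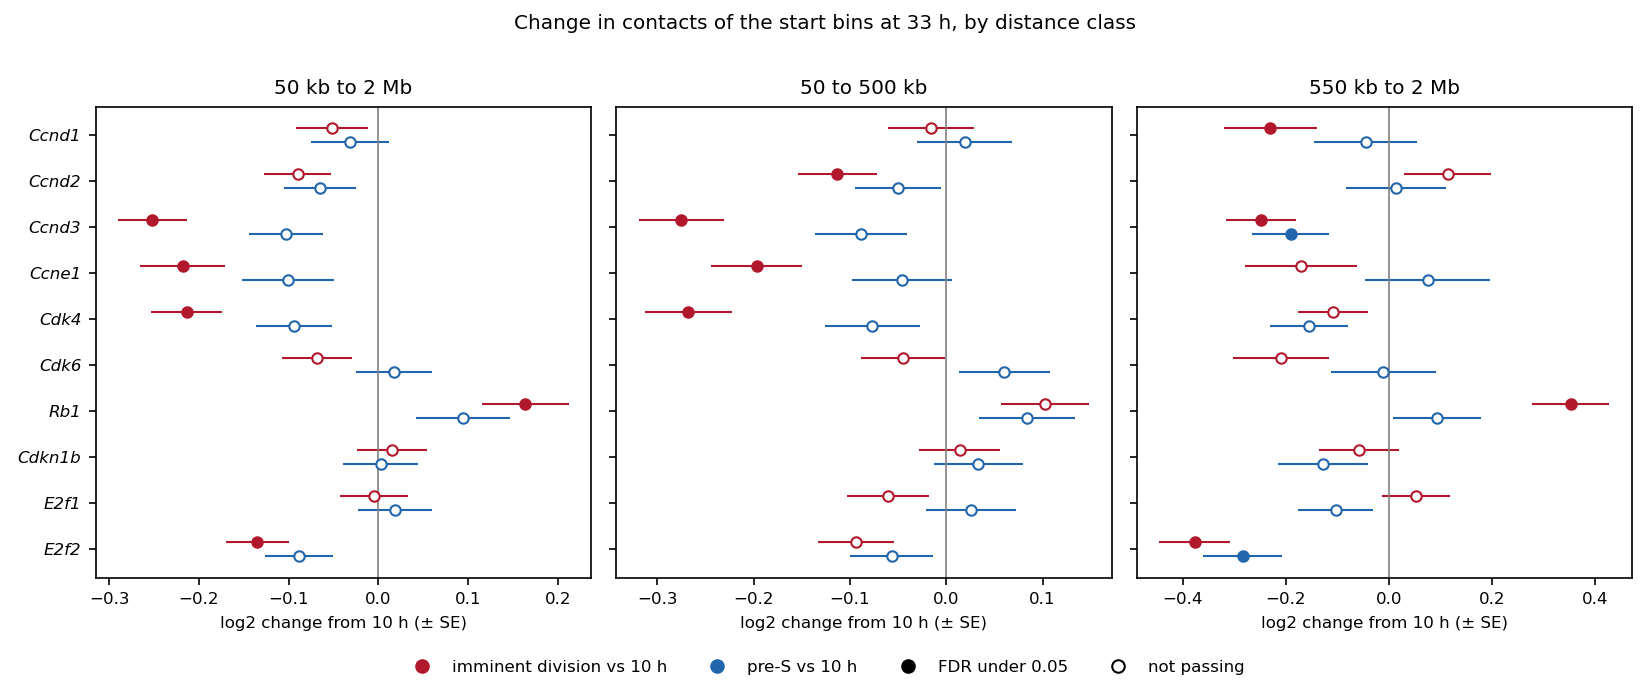
Log2 change of normalised contacts from 10 h (horizontal axis, with SE bars) for each start bin (vertical axis), in red for imminent division and blue for pre-S, over the whole window, the near class and the far class, filled where the FDR was under 0.05. Near losses are called at Ccnd2, Ccnd3, Ccne1 and Cdk4, and the largest far changes are the loss at E2f2 (−0.38) and the gain at Rb1 (0.35).

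Contacts with single partner bins were tested next. Each of the 10 start bins had between 25 (Ccne1) and 71 (E2f1) partner bins within 2 Mb that stood at least 4-fold over background, 438 bin pairs in all. From 10 h to imminent division 27 of them became weaker and 2 stronger. Under TMM or median-ratio factors these were 46 and 4, and at 2-fold over background 15 and 0, with no share of all pairs given for those settings. The 27 and 2 are 6.62% of the 438, against 2.01% of 1459088 bin pairs tested over all autosomes and 2.29% of those within 2 Mb. By direction, 1.32% of all pairs were called weaker and 0.69% stronger. Within 2 Mb these shares were 1.51% and 0.784%, so weaker calls were the more frequent there too. E2f2 held 10 of them, Ccnd3 7 and Cdk4 6. The shares over all pairs take in bins of both compartments, and none was computed for pairs from starts in A. Of the 27, all had a partner in the A compartment, as did 408 of the 438, and 2 were also called weaker at pre-S. In all, 3 of the 438 pairs were called at pre-S, 0.685% against 0.594% of all bin pairs and 0.679% of those within 2 Mb. The pre-S and imminent division contrasts share the 10 h libraries. The bin pair fits with a library left out kept the set of pairs and the dispersion trend of the fit to all 8 libraries. With a single library left out, the refits called between 4 and 34 of the 438 pairs at imminent division against 10 h. They called 8 and 4 without replicate 1 or 2 of 10 h, 9 and 12 without replicate 1 or 2 of imminent division, and 26 or more without any 1 of the others.

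With all 8 libraries E2f2 had 10 weaker partners, more than any other member. All lay on the side of lower coordinates, between 250 and 1250 kb away. They kept their direction with 1 library left out, but only the call at 500 kb was kept in every such refit. The bin 300 kb away, with Srsf10, Pnrc2 and the cannabinoid receptor gene Cnr2, gave −0.68 (edgeR FDR 0.00533) at imminent division, a call lost without either 10 h library or replicate 2 of imminent division (FDR 0.054 without the latter). The bin of Ifnlr1, which encodes an interferon lambda receptor chain, lies 500 kb away and had 34 and 46 read pairs at 10 h but 24 and 30 in the deeper imminent division libraries (−1.43, edgeR FDR 0.000138). That loss passed under every alternative, the largest FDR being 0.0401. No E2f2 partner on the side of higher coordinates was called.

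Ccnd3 had 7 weaker partners, all on the side of higher coordinates, between 150 and 1050 kb away. Each kept its direction with 1 library left out, but of the 7 calls that at 750 kb alone was kept in every such refit. The bin of Treml4 and Treml2, which encode receptors of the TREM family on myeloid and lymphoid cells, lies 750 kb away (chromosome 17, 48250022 to 48300095). Its read pairs with the Ccnd3 start were 21 and 24 at 3 h, 31 and 41 at 10 h, then 17 and 21 at imminent division against 18 and 11 at pre-S. The contact stood at 2.98 times the average for its distance at 10 h and at 0.897 times at imminent division (−1.79, edgeR FDR 9.52e-06), and the call held under every alternative with an FDR of at most 0.0105. At pre-S it was 1.38 times, a change of −1.13 that did not pass (edgeR FDR 0.0562). The bin 450 kb away, in which no protein-coding gene starts, was weaker in both groups at 33 h (−1.13 with edgeR FDR 0.00217 and −1.11 with FDR 0.0326). The former did not pass without replicate 2 of 10 h (FDR 0.076), and the latter not without any 1 of the 10 h or pre-S libraries (FDR up to 0.303), with bin coverage or at 2-fold over background. The bin 1050 kb away had the largest change of any called pair (−2.22, edgeR FDR 0.00487) on few read pairs, 11 and 15 at 10 h and 5 in each imminent division library. It did not pass without replicate 2 of 10 h (edgeR FDR 0.13) or replicate 2 of imminent division (FDR 0.0567).

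Cdk4 had 6 weaker partners, between 150 and 900 kb toward the end of chromosome 10. With the bin of Inhbe, Inhbc and R3hdm2, 300 kb away, it had 52 and 71 read pairs at 10 h, then 55 and 68 at imminent division against 45 and 37 at pre-S, which is 1.94, 1.055 and 1.55 times the average for the distance (−0.81 at imminent division, edgeR FDR 0.00858). With the bin of Stac3, Ndufa4l2, Shmt2 and Nxph4, 450 kb away, it fell by 1.09 (FDR 0.00822), and with a bin 900 kb away by 1.44 (FDR 0.00664). Without replicate 2 of imminent division 5 of these 6 calls did not pass (edgeR FDR 0.051 at 300 kb and 0.0858 at 450 kb), although all 6 kept their direction. Without replicate 2 of 10 h none of the 6 passed.

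The other members had few calls. E2f1 had 2 weaker partners of 71, at 350 kb (−0.80, edgeR FDR 0.00694) and at 1350 kb, the bin of Uqcc1 and of the growth factor gene Gdf5 (−1.61, FDR 0.00847). Both were lost without replicate 1 of 10 h or replicate 1 of imminent division, and the latter also without replicate 2 of 10 h (edgeR FDR up to 0.239 and 0.19). Ccnd1 had 1, 1100 kb away at Nadsyn1 and Dhcr7, an enzyme of NAD synthesis and the last enzyme of cholesterol synthesis (−1.32, FDR 0.00696), with 21 and 32 read pairs at 10 h and 15 and 24 at imminent division. It did not pass without replicate 2 of 10 h or replicate 1 of imminent division (edgeR FDR up to 0.231). Ccne1 had 1, the neighbouring bin at 50 kb (−0.35, FDR 0.00698). That call was lost when the coverage of each bin entered the offsets, without either 10 h library and without replicate 2 of imminent division (edgeR FDR 0.0641). Rb1 gained contact with the bin of the leukotriene receptor gene Cysltr2, 300 kb away, with 31 and 37 read pairs at 10 h, then 102 and 99 at imminent division against 34 and 18 at pre-S. This was 1.08, 1.74 and 0.970 times the average for the distance. The gain was called against 10 h (0.73, edgeR FDR 0.0329) and against pre-S (0.88, FDR 0.0373). The latter did not pass without any 1 of the 4 libraries at 33 h (edgeR FDR up to 0.538, and 0.0642 without replicate 2 of imminent division), nor the former without either 10 h library or replicate 1 of imminent division (FDR up to 0.34). Both were also lost at 2-fold over background and with bin coverage in the offsets, where the changes were 0.55 and 0.45. Cdk6 gained with a bin 250 kb toward the start of the chromosome that lay in the closed B compartment (1.13, edgeR FDR 0.0423), which stayed below the average for its distance at 10 h and at imminent division (0.287 and 0.638 times). That call was lost without any 1 of the 10 h or imminent division libraries (FDR up to 0.288, and 0.279 without replicate 2 of imminent division) and at 2-fold over background. For Ccnd2 the 1 call was at pre-S, with the bin of Parp11 at 250 kb (−0.61, FDR 0.0481), and it was lost without any 1 of the 10 h or pre-S libraries (edgeR FDR up to 0.517), with the replicate block, with bin coverage in the offsets and at 2-fold over background. For Cdkn1b no partner passed. Its smallest p was with a bin 850 kb away (−0.93 at imminent division, edgeR FDR 0.0688). Between 3 h and 10 h none of the 438 pairs passed in edgeR, while 33 had an unadjusted p under 0.05, and 9 of all bin pairs passed, 0.000617%.

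**Figure D3:**
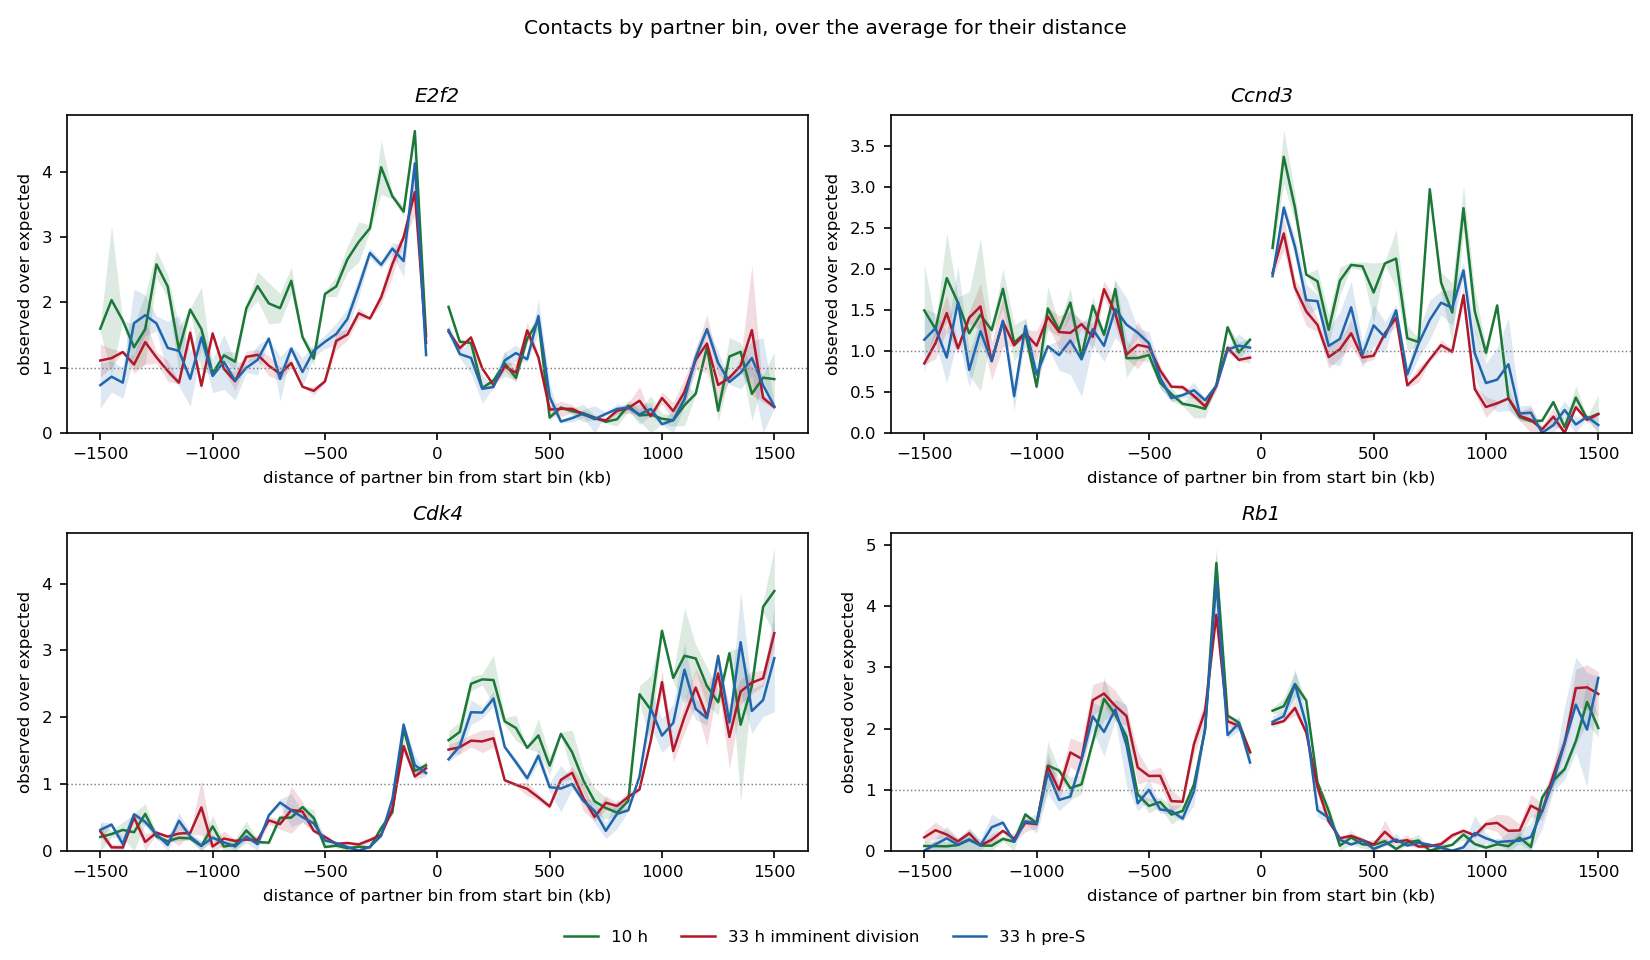
Contacts of the start bins of E2f2, Ccnd3, Cdk4 and Rb1 with each bin within 1500 kb (horizontal axis, kb from the start bin), as observed over the average for the distance (vertical axis, no unit), with the mean of 2 replicates as a line and their range shaded. At 10 h (green) E2f2 stands above both groups at 33 h over most bins 250 to 700 kb to the left, and Ccnd3 and Cdk4 over bins to the right, while Rb1 at imminent division (red) stands above 10 h near 300 kb to the left.

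**Figure D4:**
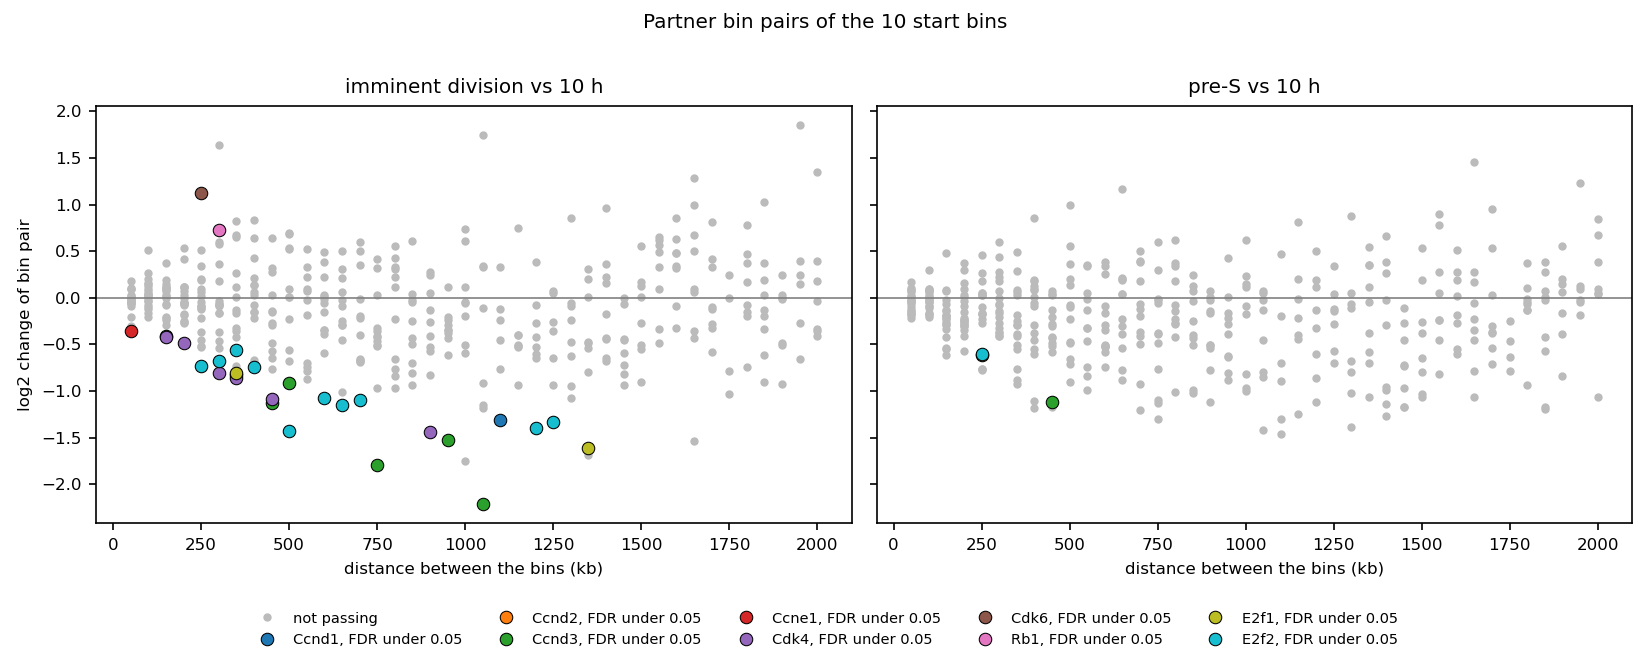
Log2 change of each of the 438 partner bin pairs (vertical axis) against the distance between the bins in kb (horizontal axis), for imminent division and pre-S against 10 h, with pairs at an FDR under 0.05 coloured by member and the rest grey. At imminent division 27 called pairs lie below 0 and 2 above, and at pre-S 3 lie below 0, of which 2 overlap in the plot.

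Compartment position moved little. The first component of the contact correlation, positive in A, lay between 0.575 and 1.44 in all members and libraries, on a scale with an SD of 1. Cdk6 had the lowest values from 10 h on. It had 0.954 and 0.881 at 3 h, 0.785 and 0.774 at 10 h, then 0.575 and 0.685 at imminent division against 0.701 and 0.652 at pre-S, so that both groups at 33 h lay below both at 10 h. The fall to imminent division passed (−0.15 ± 0.04, limma FDR 0.0232), but not without either 10 h library or replicate 1 of imminent division (FDR up to 0.221). It was the only call among the 10 in that contrast, against 22.6% of 23789 bins of 100 kb. No member was called at pre-S, against 16.7%. Ccne1 had 0.967 and 0.970 at 10 h, then 0.920 and 0.915 at imminent division against 1.05 and 1.05 at pre-S, and was the 1 member whose component differed between the groups at 33 h (−0.13 ± 0.03, limma FDR 0.00777, against 13.1% of bins), a call lost without either imminent division library or replicate 2 of pre-S (FDR up to 0.0673).

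Insulation scores gave the most calls. The score is the log2 of the contacts that cross a bin between the 500 kb on each side, over the median of the chromosome, so a lower score means fewer contacts across the start. Ccnd1 is too near the chromosome end for a score. From 10 h to imminent division the scores of all 9 other members fell, by between 0.19 (Cdk6) and 0.66 (Cdk4), and from 10 h to pre-S 7 fell (limma). The call at Cdk6 was lost without either 10 h library, and at pre-S those at Ccne1 and E2f1 without any 1 of the 10 h or pre-S libraries and that at Ccnd3 without replicate 1 of pre-S. These counts stand against a background in which 57.3% and 58.9% of 46781 bins were called in those contrasts. At start bins in the A compartment 69.6% and 72.0% of 10036 were called lower, so most other starts in A were called in the same direction as the members. Ccnd2 had the highest score in every library, with 1.94 and 1.81 at 3 h, 1.67 and 1.62 at 10 h, then 1.14 and 1.32 at imminent division against 1.198 and 1.23 at pre-S (−0.41 ± 0.07 and −0.43 ± 0.07, limma FDR 0.000663 and 0.000913). Rb1, whose summed contacts rose, fell in this score too, from 1.09 and 1.14 at 10 h to 0.568 and 0.656 at imminent division against 0.732 and 0.749 at pre-S (−0.50 ± 0.06, FDR 8.48e-05, and −0.37 ± 0.06, FDR 0.00086). Cdkn1b had no called contact sum under the scaling used here. Its score fell from 1.01 and 0.969 to 0.426 and 0.580 and to 0.521 and 0.469 (−0.49 ± 0.07, limma FDR 0.000224, and −0.50 ± 0.07, FDR 0.000494). Cdk4 alone had scores below 0 in all libraries, with −0.33 and −0.13 at 10 h, then −0.92 and −0.87 at imminent division against −0.49 and −0.46 at pre-S. Its fall was called at imminent division (−0.66 ± 0.12, FDR 0.000828) and not at pre-S (−0.24 ± 0.12, FDR 0.107), and the difference between the groups at 33 h was called (−0.42 ± 0.12, FDR 0.0488, against 9.22% of bins), though not without any 1 library of 10 h or 33 h (FDR 0.151 without replicate 2 of imminent division). Most of these falls depend on the reference. When crossing contacts were divided by the contacts within either side, 3 of 9 were called lower at imminent division, at Ccnd3, Rb1 and Cdkn1b. The 1 called higher was E2f2, which turned to a gain of 0.16. At pre-S 1 of the 7 falls then passed, at Cdkn1b, and the signs of Ccnd2, Ccnd3, E2f1 and E2f2 turned. The shares of bins given above belong to the score over the chromosome median. None is given for this other reference, so its counts are not set against a background.

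**Figure D5:**
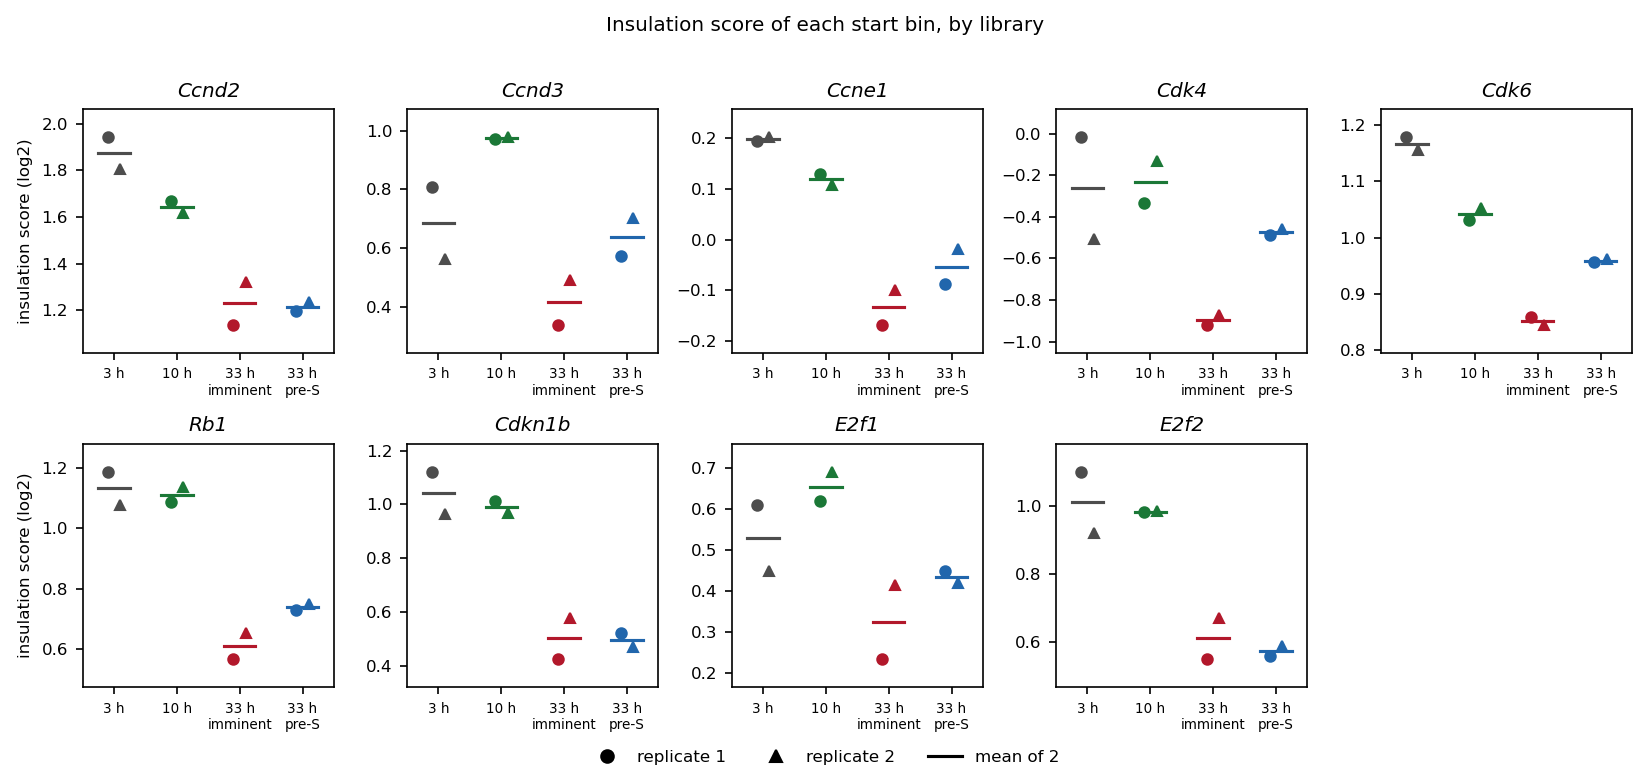
Insulation score of the start bin (vertical axis, log2 of crossing contacts over the chromosome median) for the 9 members with a score, by group (horizontal axis), with circles for replicate 1, triangles for replicate 2 and a bar at the mean of 2. In each panel both imminent division libraries lie below both 10 h libraries, and the panels have separate axes.

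The groups at 33 h were also compared with each other. Near contacts were lower at imminent division than at pre-S at Ccnd3 (−0.19 ± 0.05, edgeR FDR 0.0104), Cdk4 (−0.19 ± 0.05, FDR 0.0103) and Ccne1 (−0.15 ± 0.05, FDR 0.0457), 3 of 10 against 10.2% of start bins in either direction and 4.68% lower. Without replicate 2 of imminent division none of these 3 passed (edgeR FDR 0.101, 0.106 and 0.0635), with changes of −0.17, −0.17 and −0.20, nor did they without replicate 2 of pre-S (FDR 0.151, 0.139 and 0.355). All 3 calls were also lost under TMM factors and DESeq2, and those at Ccnd3 and Ccne1 with bin coverage in the offsets. The call at Ccne1 was lost too with the replicate block and without any 1 of the 10 h, imminent division or pre-S libraries. With cis totals 7 members were called and all were higher. No share of start bins called with cis totals is given for this comparison. Far contacts of Rb1 were higher (0.26 ± 0.08, edgeR FDR 0.0325), against 8.08% of start bins. That call was lost without either 10 h library, either imminent division library or replicate 2 of pre-S (edgeR FDR up to 0.403, and 0.113 without replicate 2 of imminent division). It was also lost with bin coverage in the offsets, under DESeq2 and with the replicate block, and the change ranged from 0.16 to 0.38 with 1 library left out. Whole-window contacts were called at Ccnd3 alone, against 3.98%, a call kept in 4 of 17 alternatives. Besides the left-out libraries given above, it was lost under TMM factors, bin coverage in the offsets, DESeq2, the replicate block, the distance curve (FDR 0.978) and observed over expected, and with cis totals the change was 0.0758. Of the 438 partner pairs 2 were called, the gain of Rb1 with Cysltr2 and a lower contact of Ccne1 with a B compartment bin 750 kb away (−1.07, edgeR FDR 0.0229), against 0.359% of bin pairs. The latter was lost without replicate 1 of imminent division or either pre-S library (FDR up to 0.328) and at 2-fold over background. At the other members the differences between these groups did not pass, which does not show that they were alike.

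From 3 h to 10 h the far gain at E2f2 was the 1 call. No whole-window, near, compartment or insulation value passed (edgeR and limma), against 0.0679%, 0.446%, 2.88% and 0.0171% of all features, and the largest whole-window change among the members was −0.09 ± 0.05, at Ccne1.

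A further 26 genes of the same pathway were read alongside, of which 25 could be tested for contacts. At imminent division 12 of 25 were called in the whole window, 7 higher and 5 lower, which is 48.0% against 44.3% of all start bins, and at pre-S 7 were called, 5 higher and 2 lower, which is 28.0% against 37.4%. Cdk2, the partner kinase of cyclin E, passed more of the tests than any other gene of the list. Its window contacts fell by 0.26 ± 0.04 at imminent division (edgeR FDR 4.60e-05) and by 0.20 ± 0.04 at pre-S (FDR 0.00145). Windows of Cdkn2c, an inhibitor of Cdk4 and Cdk6, rose by 0.19 ± 0.04 (FDR 0.00145) and 0.25 ± 0.05 (FDR 0.000557), and those of the transcription factor gene E2f5 by 0.15 ± 0.05 (FDR 0.014) and 0.21 ± 0.05 (FDR 0.00312). For insulation 17 of 25 fell at imminent division and 1 rose, E2f7 (0.63 ± 0.07, limma FDR 5.9e-05), named after its value was seen. At pre-S 18 fell. Of all start bins 55.7% and 57.9% were called lower in these contrasts, and of those in A the 69.6% and 72.0% given above. No gene of the 26 passed in any measure from 3 h to 10 h.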

How the data were processed

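Per the methods, reads were mapped by the authors to the mouse genome (mm10) through diffHic, with duplicates marked and dangling ends removed. The deposited files hold, per the file headers and values, whole-number counts of read pairs per pair of bins, 1 symmetric matrix per library. The submitters' processing notes name the build mm10. Bins of 50 kb were rebuilt from MboI fragment midpoints and genes placed by GENCODE annotation of GRCm38. Of the autosomal bins 47332 were kept and 756 left out for undetermined bases or extreme coverage, a mask used here in place of a list of excluded regions. The members and gene lists were chosen with earlier results of these data known.

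Contacts of each start bin with bins 50 kb to 2 Mb away were summed and tested with edgeR 4.0.16 (quasi-likelihood, loess offsets, 1 layout of all groups) over start bins with an average count of at least 200. Bin pairs at least 4-fold over interchromosomal background with 10 or more read pairs were tested likewise. The compartment component (100 kb bins, SD 1 per library) and the insulation score (10 bins on each side) were tested with limma 3.58.1. Calls are at a Benjamini-Hochberg FDR of 0.05 over all features tested. Tools were R 4.3.3, DESeq2 1.42.0, Python 3.11.15, numpy 2.4.6 and pandas 2.3.3, and the tests were tested on simulated data first. Normalised contacts are counts after the offsets. Read pairs carry no molecular identifiers. The p-values set a group difference against the spread between biological replicates, pooled over all 4 groups of 2 and moderated over all features. A library outside the 2 groups compared thus also enters the test.

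All members are named, with at most 3 partner bins each, those of smallest p among pairs that passed against an earlier group, or the 1 of smallest p where none passed. A partner bin of E2f2 that this rule names is not reported here. Of 26 further pathway genes, those passing most tests are named. Alternatives were other scalings (TMM, cis totals, bin coverage), DESeq2, other windows, bins and filters, a replicate block and each library left out. Observed over expected was added after the data were seen. Promoter windows are those of RefSeq on GRCm38.p6.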

Additional observations from a re-analysis of the deposited data

Results flagged for a closer look

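For 9 results the change from 10 h differed between imminent division and pre-S by a test of the difference itself. Contacts in the whole window were lower at imminent division at Ccnd3 (−0.15, edgeR FDR 0.0417). Near contacts were lower at Ccnd3 (−0.19, edgeR FDR 0.0104), Ccne1 (−0.15, FDR 0.0457) and Cdk4 (−0.19, FDR 0.0103), and far contacts were higher at Rb1 (0.26, FDR 0.0325). The compartment component of Ccne1 was lower (−0.13, limma FDR 0.00777), as was the insulation score of Cdk4 (−0.42, limma FDR 0.0488). Of the partner bin pairs, Ccne1 with the bin 750 kb away was weaker (−1.07, edgeR FDR 0.0229) and Rb1 with the bin of Cysltr2 stronger (0.88, edgeR FDR 0.0373). Each of these calls was lost with at least 1 library left out. Strain and sort gate differ between these groups and cannot be told apart from them.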

How the results depend on the processing

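Each group has 2 libraries, so many calls rest on single libraries. Of 74 called results, 38 and 41 were lost without replicate 1 or 2 of 10 h, 32 and 27 without replicate 1 or 2 of imminent division, 16 and 18 without replicate 1 or 2 of pre-S, and 1 without replicate 2 of 3 h. The contact sums are relative to other start bins, single bin pairs rest on few read pairs, and bins of 50 kb do not separate neighbouring starts. The far changes at imminent division of E2f2 and Rb1 and the weaker contacts of Ccnd3 at 750 kb and E2f2 at 500 kb passed in each alternative run. So did the falls in insulation score of Ccnd3, Rb1 and Cdkn1b at imminent division and of Cdkn1b at pre-S. Causes of the changes below were not tested.

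Leaving out 1 library at a time, members called in the whole window numbered 4 to 6 at imminent division against 10 h, 0 to 2 at pre-S against 10 h and 0 to 1 between the groups at 33 h, and 0 from 3 h to 10 h. For near contacts these were 3 to 6, 0, 0 to 3 and 0, and for far contacts 2 to 5, 0 to 2, 0 to 1 and 0 to 1. For the compartment they were 0 to 1, 0 to 1, 0 to 2 and 0 to 1, and for insulation 8 to 9, 4 to 8, 0 to 2 and 0 to 2. Called partner pairs numbered 4 to 34, 0 to 5, 0 to 2 and 0.

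With the replicate number as a block, 0 members were called in the whole window between the groups at 33 h, 0 in far contacts from 3 h to 10 h, 1 in far contacts at pre-S against 10 h, 0 in far contacts between the groups at 33 h and 0 in insulation between them, and 24 partner pairs at imminent division. Deviations of same-numbered libraries correlated from −0.444 to 0.138 across pairs of groups for window contacts, −0.331 to 0.102 for near contacts, −0.376 to 0.162 for far contacts, −0.228 to 0.232 for the compartment, −0.747 to 0.255 for insulation and −0.0338 to 0.00823 for bin pairs. They were below 0 for some pair of groups in each measure, and the labels name no shared batch, so the numbers were not taken to pair the samples.

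The counts in this paragraph have no share of all features beside them, so they are not set against a background. In the whole window at pre-S against 10 h, 4 members were called under TMM factors, 4 with cis totals and 3 with bin coverage in the offsets. Calls numbered 4 under DESeq2, 1 with 1 Mb on each side and 6 as observed over expected. All of the calls in these settings were lower. Above a distance curve 4 were called, 2 higher and 2 lower. Between the groups at 33 h 7 were called with cis totals, all higher, and 3 with 1 Mb, all lower. There 0 were called under TMM, under DESeq2 or as observed over expected. At imminent division 3 were called with cis totals, all of them higher. For near contacts 7 were called under TMM at imminent division. At pre-S 3 were called under TMM, 4 with cis totals, 2 with coverage and 3 under DESeq2, and between the groups at 33 h 0, 7, 1 and 0 in that order. For far contacts 6, 2 and 0 were called from 3 h to 10 h with cis totals, coverage and DESeq2, 1 and 0 at pre-S with cis totals and DESeq2, and 3, 4 and 0 between the groups at 33 h. Compartment bins of 250 kb gave 1 call from 3 h to 10 h, 2 at imminent division, 1 at pre-S and 3 between the groups at 33 h, and quantile normalization gave 1 at pre-S and 2 between the groups. Insulation over contacts within either side gave 2, 4, 1 and 4 in the same order, and a 250 kb square gave 0 between the groups at 33 h. Partner pairs called at imminent division numbered 50 under TMM, 50 under median-ratio factors and 15 at 2-fold over background, where 0 were called at pre-S and 0 between the groups at 33 h, and coverage gave 6 between those groups.

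Signs turned with cis totals, under which most start bins rose. In the whole window at imminent division Ccnd1 was 0.16 and Ccne1 0.0581 against 10 h, and against pre-S Ccnd1 was 0.20, Ccnd2 0.20, Ccnd3 0.0758, Cdk6 0.14, E2f1 0.20 and E2f2 0.16. Near contacts were 0.17 for Ccnd1 and 0.0341 for Ccne1 against 10 h, and against pre-S 0.24 for Ccnd1, 0.18 for Ccnd2, 0.0791 for Ccnd3, 0.12 for Ccne1, 0.0821 for Cdk4, 0.16 for Cdk6, 0.24 for Cdkn1b, 0.17 for E2f1 and 0.19 for E2f2. Far contacts were 0.11 for Ccnd1 (edgeR FDR 0.359) and 0.21 for Cdkn1b (FDR 0.0419) against 10 h. Above a distance curve Ccne1 was 0.0169 and Cdk6 0.11 at imminent division. As observed over expected Rb1 was −0.0211 at imminent division (limma FDR 0.764), and Cdkn1b −0.13 (FDR 0.0455) and E2f1 −0.17 (FDR 0.0243) at pre-S. Insulation over contacts within either side was 0.0756 for Ccnd2, 0.0744 for Cdk6 and 0.16 for E2f2 at imminent division, and 0.00687 for Ccnd2, 0.0254 for Ccnd3, 0.0179 for E2f1 and 0.00343 for E2f2 at pre-S.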
